A study of Homo sapiens with 24 samples.

Results

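The machinery that fills, docks, fuses and retrieves synaptic vesicles was read out here through 36 genes, chosen by symbol in 7 roles from the 36468 entries of the count file (the first row per symbol). The cultures were derived from H9WAO9 (the labels' spelling), an established line of human embryonic stem cells of wild-type genotype, which were directed through vagal neural crest spheroids to sensory neurons and matured for weeks. In each of 6 batches of differentiation, 1 culture received each treatment, which gave 24 libraries of polyA RNA. Vehicle cultures received the solvent (albumin in PBS), the TGF-β group 2 ng/ml, and the IL-4+IL-13 group IL-4 at 10 ng/ml and IL-13 at 3 ng/ml, all for 5 days. The 6 IL-6 libraries carry that label with no dose. All libraries came from 1 cell line and from whole cultures in which neurons were a minority of cells. In such bulk samples, fewer neurons and less RNA per neuron cannot be told apart.

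Neurotransmitter is loaded into synaptic vesicles by transporters in the vesicle membrane, and the transporter present sets which transmitter the vesicle can release. Filled vesicles are held in clusters by synapsins, brought to the active zone through Rab3 GTPases and their scaffold partners, and primed when VAMP on the vesicle engages syntaxin and SNAP25 on the plasma membrane. Calcium bound to a synaptotagmin then triggers fusion, NSF and its adaptors take the SNARE complex apart, and dynamin and its partners pull the membrane back. Primary sensory neurons use this machinery at their central terminals, where most release glutamate, and also in the periphery.

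Of the 36 genes, 35 had 1 entry in the file. NSF had 3 entries with total counts of 51792, 45347 and 47531, so its reads may have been split among near-identical copies, and its values below are those of the first entry. The exons of SYN1, SYP, SYT2, VAMP1, VAMP2 and RAB3A overlap an exon of another gene (ARAF, SYP-AS1, PPP1R12B, TAPBPL, an entry with no symbol and MPV17L2). The strandedness of the libraries is not stated, so reads in those overlaps could belong to either gene. SYN1 is shown because it was the only release gene searched whose upstream window matched the long motif given below. It lies on the minus strand at chrX:47571901-47619857, and the 250 bases upstream of it occupy chrX:47619858-47620107 of GRCh38.p14 (RefSeq). The sequence is printed 5′ to 3′ on the strand of the gene, and the capitals mark the match to the motif, CAGCACC and GGACAG with any 2 bases between them, which is part of the element that the repressor REST binds.

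SYN1 promoter: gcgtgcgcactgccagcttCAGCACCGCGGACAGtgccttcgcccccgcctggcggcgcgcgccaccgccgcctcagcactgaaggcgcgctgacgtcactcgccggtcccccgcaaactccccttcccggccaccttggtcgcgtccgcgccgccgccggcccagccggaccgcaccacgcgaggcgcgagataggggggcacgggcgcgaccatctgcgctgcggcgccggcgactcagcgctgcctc

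The match covered bases 231 to 217 before the annotated start. Searched on both strands, the motif was found in 14 of 27305 RefSeq promoters (0.0513%) and in 1 of the 32 release genes with a promoter in that table. The match describes the letters in the window.

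All 36 genes were detected in every library. The lowest count of any of them was 52, for SLC18A3, at 33342682 to 39817784 counts per library, and all 36 passed the minimum total count of 10. Together they took between 0.170% and 0.856% of a library's counts. The pan-neuronal markers were all present, as were all 10 sensory markers, with mean levels of 8.45 to 11.08 on the log2 scale. Levels are given as log2(normalized count + 1), where a normalized count is the deposited count divided by the library's size factor. A collection of 8 mesenchymal markers was also high, at 11.12 to 12.93, and 6 epithelial markers stood at 8.60 to 11.0. The glial markers stood at 5.13 to 6.75, with FOXD3 and CDH19 at 0 in some libraries.

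Scaled by transcript length and library total (RPKM), the leading genes of the vesicle membrane and of fusion stood well above the large active-zone scaffolds in the vehicle cultures. SNAP25, a plasma membrane SNARE, had an RPKM between 25.5 and 187, with a median of 116 over the 6 vehicle libraries. SYT4, a synaptotagmin that does not act as the fast calcium sensor, followed with a median of 101, then SYP, the abundant vesicle membrane protein synaptophysin, at 95.1 and VAMP2, the vesicle SNARE, at 93.6. RAB3A, SV2A and SYT11 had medians of 88.5, 79.0 and 76.7. At the other end stood the giant scaffold genes BSN and PCLO (5.60 and 4.76), the priming factor UNC13B (4.59), RIMS2 (4.11) and the transporters SLC18A3 (3.41) and SLC17A8 (2.62). The spread between vehicle libraries was wide, so that neighbours in this order overlapped in their ranges.

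**Figure D1:**
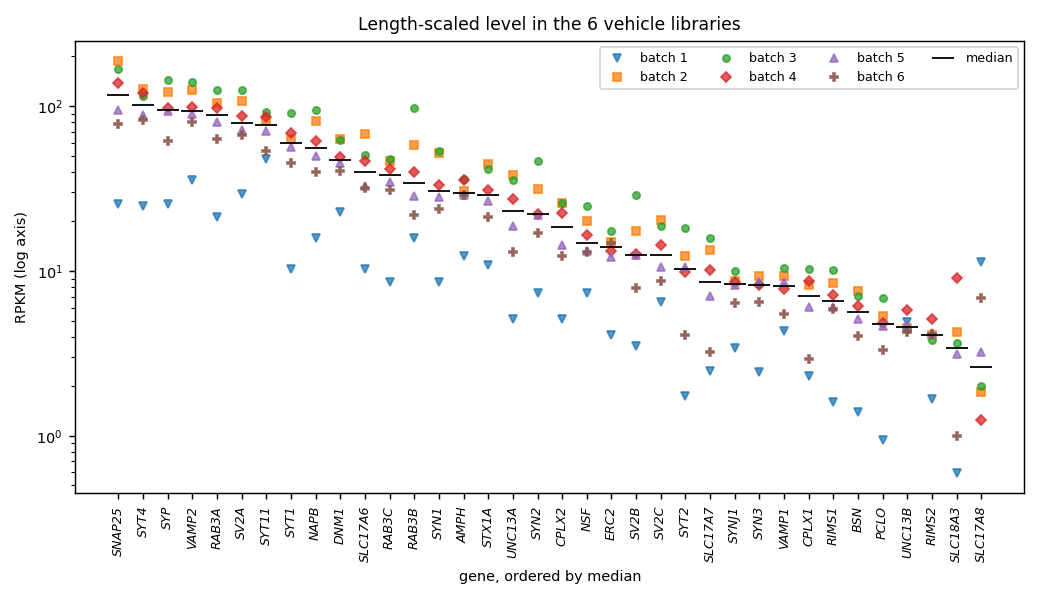
Length-scaled level (RPKM, log axis) of each of the 36 genes in the 6 vehicle libraries, with 1 symbol per batch and a bar at the median. SNAP25 had the highest median (116) and SLC17A8 the lowest (2.62), and the library of batch 1 was the lowest for most genes but the highest for SLC17A8.

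Among the transporters, SLC17A6, which encodes the vesicular glutamate transporter VGLUT2 (chr11:22338381-22379503), stood highest per length. Its normalized count in the vehicle libraries ran from 1464 to 8991 with a median of 5019. Under TGF-β it ran from 1202 to 8446 (median 4444), under IL-4+IL-13 from 2574 to 6681 (median 4257) and under IL-6 from 2080 to 6134 (median 4298). The 4 groups overlapped over most of their ranges. SLC17A7, for VGLUT1 (chr19:49429401-49441527), had a median RPKM of 8.60 in vehicle, and its normalized counts ran from 285 to 1745 there, with the libraries of batches 1 and 6 lowest. Per length, SLC17A6 was above SLC17A7, SLC17A8 and SLC18A3 in every vehicle library of batches 2 to 6. In batch 1, SLC17A6 stood at 10.3 RPKM and SLC17A8, for VGLUT3 (chr12:100357074-100422055), at 11.3.

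SLC17A8 was distributed over batches in the opposite way to nearly all other genes. Its normalized count in vehicle was 1758 in batch 1 and 931 in batch 6, against 268, 298, 171 and 447 in batches 2, 3, 4 and 5. SLC18A3, which loads acetylcholine and lies within the CHAT locus (chr10:49610310-49612720), had normalized counts of 56, 374, 332, 750, 262 and 82 in the vehicle libraries of batches 1 to 6, so that its lowest batches were those where SLC17A8 was highest. The vehicle library of batch 4 held the largest SLC18A3 count of the 24 libraries.

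The main difference among the libraries lay between batches of differentiation. Of the variance of each gene's level over the 24 libraries, batch held between 64.9% and 95.6%, with a median of 85.4%, against a median of 54.9% over the 29377 genes tested. Treatment held a median of 1.46% (all genes 6.77%), with the largest share, 6.11%, in SLC17A8. These shares make no allowance for noise, and the treatment share can only come from what batch leaves. The lower median therefore does not show that these genes responded less to treatment. Batch 1 was lower than the mean of batches 2 to 6 in 34 of the 36 genes, by a median of 1.44 on the log2 scale. In 22 genes all 4 libraries of batch 1 lay below all 20 others, which was so for 6.36% of all genes. SLC17A8 was the only member above all others in batch 1 (7.53% of all genes), by a mean difference of 2.30.

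**Figure D2:**
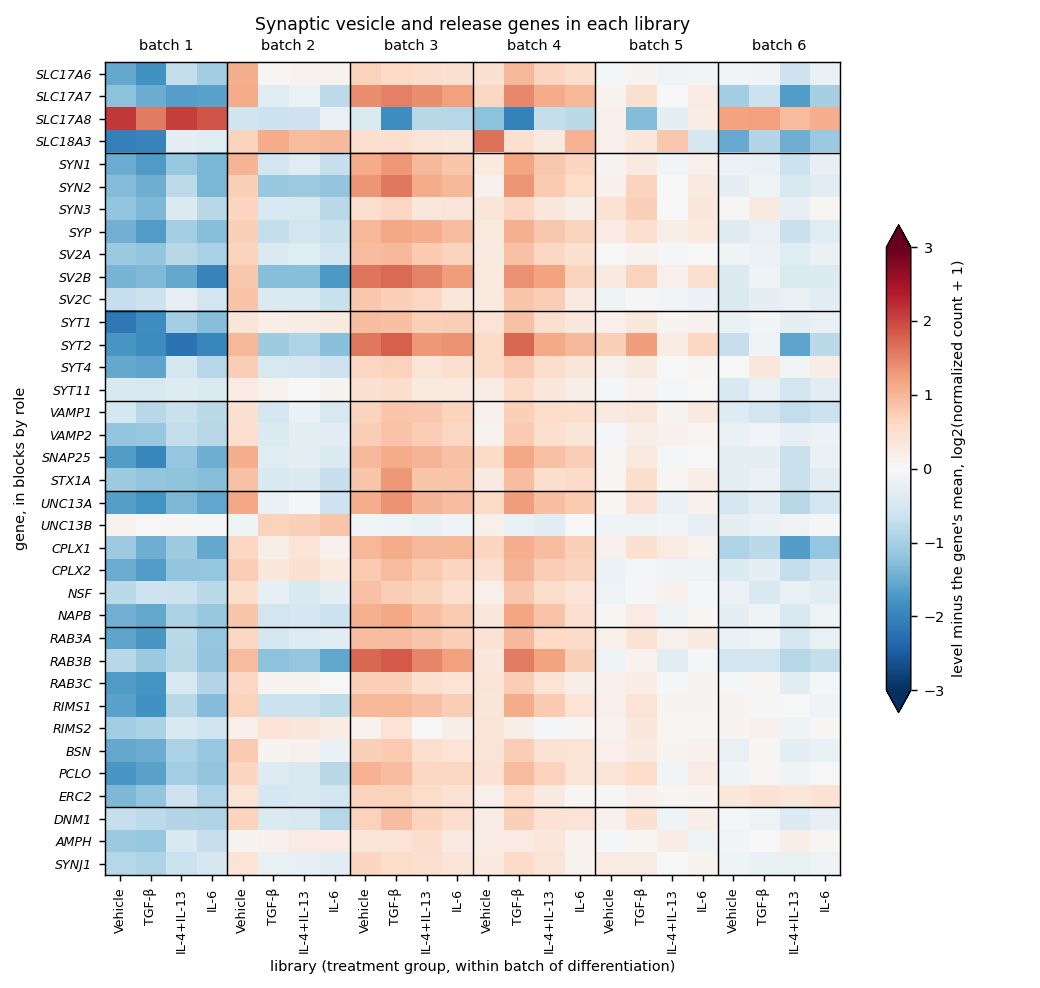
Level of each gene in each of the 24 libraries as the difference from the gene's own mean (color, log2 scale), with columns ordered by batch and treatment and rows in blocks by role. Batch 1 lay low in 34 of 36 genes, batches 3 and 4 high, and in batch 2 the vehicle library was higher than all 3 treated libraries in 31 of 36.

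The levels of the release genes moved with the neuronal marker level of the libraries. That level was read from 12 pan-neuronal markers that are no members of the group, among them TUBB3, UCHL1 and STMN2, as their mean level. It was 12.62 to 13.43 in the 4 libraries of batch 1 and 13.65 to 14.76 in the other 20. Over the vehicle libraries the SD of a gene's level had a median of 0.877, and 0.298 after the neuronal level of the same library was subtracted. The SD was smaller relative to the neuronal level in 33 of the 36 genes. In SYN3, SYT4, BSN and RAB3A it came down to between 0.155 and 0.167, from 0.681 (SYN3) to 0.892 (RAB3A). The exceptions were SLC17A8 (from 1.25 to 1.94), UNC13B (0.161 to 0.797) and SYT11 (0.381 to 0.471). UNC13B, a priming factor of the Munc13 family that is also made outside neurons, had normalized counts of 2135 to 2892 in vehicle, while its paralog UNC13A ran from 1994 to 13922.

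**Figure D3:**
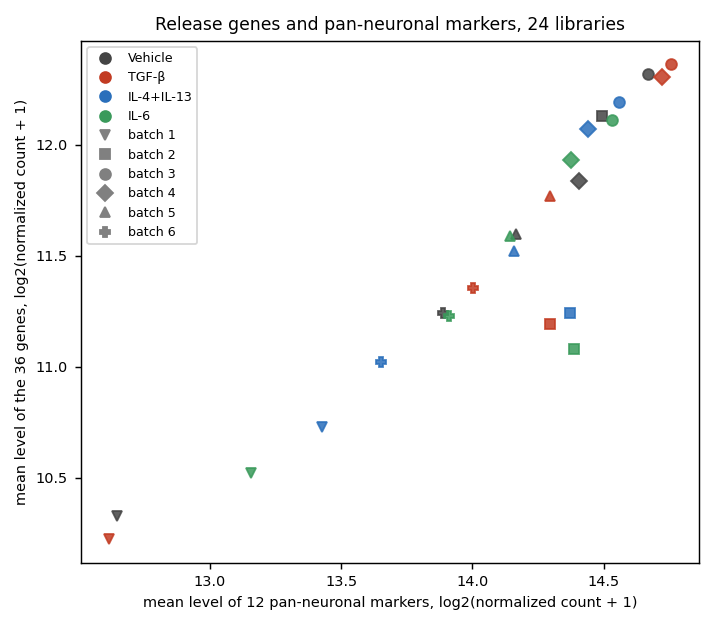
Mean level of the 36 genes against the mean level of 12 pan-neuronal markers in the 24 libraries (both as log2(normalized count + 1)), with color for treatment and symbol for batch. The 3 treated libraries of batch 2 lay below the other 21, with release genes 3.10 to 3.31 under the markers against 2.32 to 2.70 elsewhere (both axes are means over genes of the same library).

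Batch 2 stood apart in another way. Its vehicle library was higher than its 3 treated libraries in 31 of the 36 genes and lower than all 3 in 4 (all genes 38.0% and 31.3%), by a median of 1.07 on the log2 scale. The pan-neuronal level hardly differed among these 4 libraries, at 14.49 in vehicle and 14.30, 14.37 and 14.39 in the treated cultures. Proliferation markers (MKI67, TOP2A, CCNB1, CDK1) stood at 8.80 in the vehicle library and between 11.15 and 11.59 in the treated ones, which were above the other 21 libraries (6.99 to 9.95). Mesenchymal markers stood at 12.93 in vehicle and at 11.24 to 11.55 in the treated cultures. The sensory markers stood at 10.72 in vehicle and 9.91 to 10.02 in the treated cultures, and epithelial markers at 9.91 and 8.60 to 9.04. With each gene centered on its group mean, the vehicle library of batch 2 correlated with the 3 treated libraries of its own batch at a median of 0.004, and with the 3 treated libraries of batch 4 at 0.455. The vehicle library of batch 4 did the reverse, at 0.106 with its own batch and 0.416 with the treated libraries of batch 2. Batch labels were kept as given, and whether those 2 vehicle libraries carry each other's label was not tested, so every difference from vehicle within batches 2 and 4 depends on those labels. Over all 36 pairs of libraries within a batch the median was 0.564. The genes that differed most within batch 2 were RAB3B, a vesicle GTPase (2.26 higher in vehicle), SV2B, a vesicle glycoprotein (2.25), SYT2, a fast calcium sensor (2.08) and SYN2 (1.84). SYT1 and SYT11 differed by only 0.145 and 0.176, and UNC13B by -0.866 (lower in vehicle). The part of proliferating, mesenchymal and epithelial cells and of the sensory share in these differences was not tested. The median of the 36 genes in each comparison with vehicle below is therefore given with and without the vehicle library of batch 2. Fold changes of single genes are from all 24 libraries unless stated. With the vehicle libraries of batches 2 and 4 both left out, edgeR again called 0 of 36 in each comparison with vehicle, and the median fold changes of the 36 genes were 0.12 under TGF-β, 0.02 under IL-4+IL-13 and -0.03 under IL-6.

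TGF-β was compared with vehicle to ask whether a cytokine of airway remodeling alters the release machinery. None of the 36 genes passed an adjusted p under 0.05 in edgeR's quasi-likelihood test, against 0.347% of all genes, and DESeq2 called none either (all genes 1.79%). At an unadjusted p under 0.05 there was 1 (all genes 7.29%), and the smallest adjusted p was 0.222. Fold changes lay between -0.66 and 0.12 on the log2 scale, 26 of 36 were below 0 (all genes 52.6%), and the median was -0.06 (all genes -0.01). Without the vehicle library of batch 2, 4 of 36 were below 0 (all genes 51.9%) and the median was 0.14. The sign of the group's median thus rested on that library.

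SLC17A8 was the 1 gene with an unadjusted p under 0.05 under TGF-β. Its normalized counts under TGF-β were 1189, 257, 111, 98, 164 and 947 in batches 1 to 6, against 1758, 268, 298, 171, 447 and 931 in vehicle. TGF-β libraries were lower in 5 of 6 batches, clearly so in batches 3, 4 and 5, where the level differed by -1.42, -0.80 and -1.44, and the groups overlapped across batches. The log2 fold change was -0.66 (SE 0.19, 95% interval -1.06 to -0.26) with an adjusted p of 0.222 in edgeR. It was -0.73 without the vehicle library of batch 2, -0.68 without batch 1, and -0.64 with the pan-neuronal level in the model. DESeq2 gave -0.66 with an adjusted p just above the threshold of 0.05.

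Next by p under TGF-β came SYT11, a synaptotagmin that does not bind calcium, at 0.10 (SE 0.06, adjusted p 0.818 in edgeR), and RIMS2, an active-zone scaffold that binds Rab3, at 0.12 (SE 0.10, adjusted p 0.915). Of the core of the vesicle, SLC17A6 differed by -0.14 (SE 0.19), SYN1 by -0.13 (SE 0.23), SYP by -0.09 (SE 0.20) and SNAP25 by -0.15 (SE 0.21). SYT1, VAMP2 and STX1A differed by 0.12 (SE 0.14), 0.04 (SE 0.14) and 0.002 (SE 0.19). The 95% intervals of 35 of the 36 genes lay within a log2 fold change of 1 in either direction, SLC17A8 excepted. Without the vehicle library of batch 2, 7 genes had an unadjusted p under 0.05 (all genes 10.1%), of which SYN2, SV2B, SYT2, SYT11, VAMP2 and STX1A were higher, by 0.13 (SYT11) to 0.39 (SYT2), and SLC17A8 was lower. None of the 7 had an adjusted p under 0.05. In that fit only SLC17A8, SLC18A3, UNC13B and SYNJ1 of the 36 genes were below 0. The negative signs of SLC17A6, SYN1, SYP and SNAP25 under TGF-β thus rested on that library. The fit without it kept the vehicle library of batch 4. The mean of the 36 genes under TGF-β differed from vehicle by 0.47 in batch 4. It differed by -0.10, 0.04, 0.17 and 0.12 in batches 1, 3, 5 and 6. With the vehicle libraries of batches 2 and 4 both left out, fold changes lay between -0.79 and 0.29. The part of batch 4 in the higher values was not tested.

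**Figure D4:**
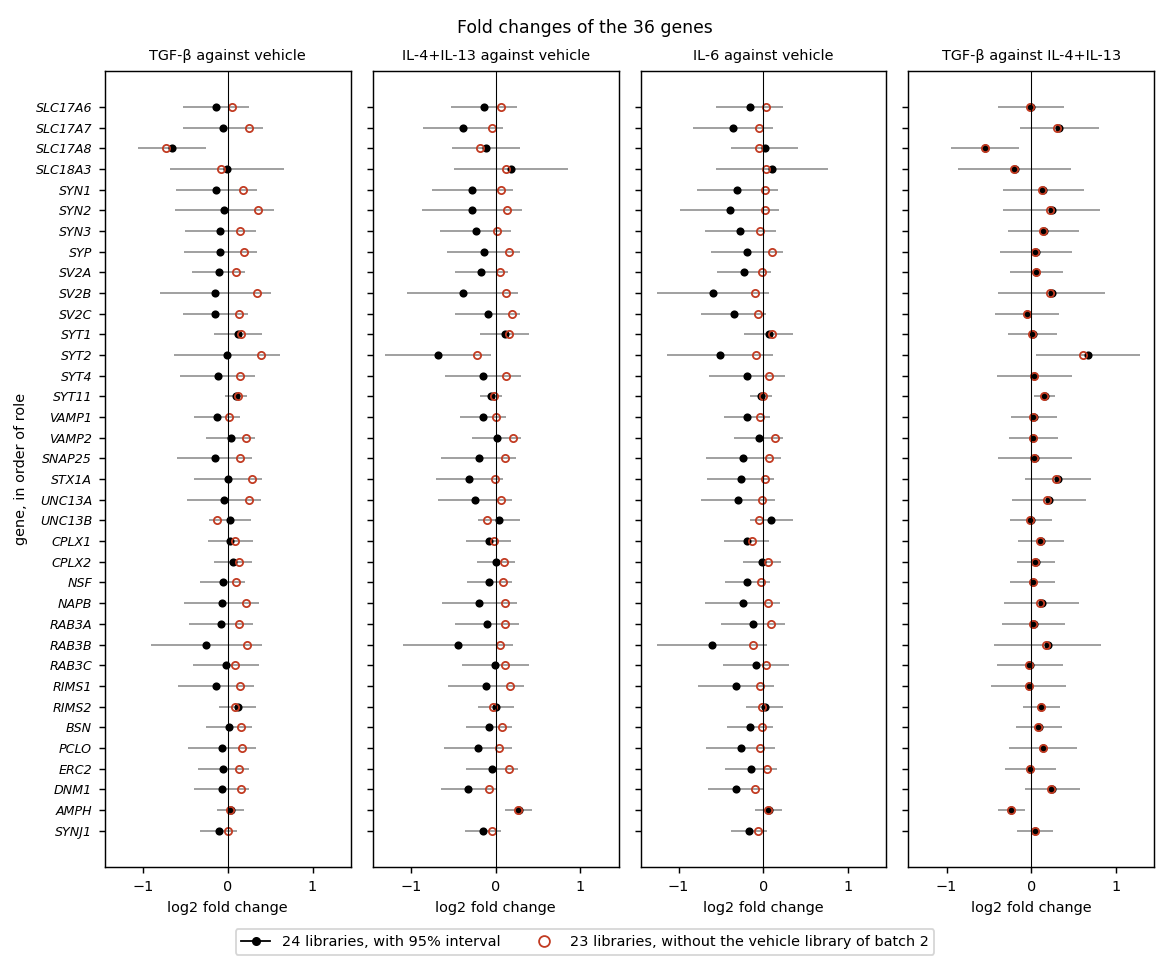
Fold change of each gene (log2 scale) in the 4 comparisons, as black points with 95% intervals from all 24 libraries, and as open red circles without the vehicle library of batch 2. In the 3 comparisons with vehicle most circles lay to the right of the points, and in TGF-β against IL-4+IL-13 they nearly coincided.

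IL-4+IL-13 was compared with vehicle for the same question in a type 2 setting. Again none of the 36 genes passed in edgeR (all genes 0.633%), while DESeq2 called 1, AMPH (all genes 1.98%). At an unadjusted p under 0.05 there were 2, AMPH and SYT2 (all genes 9.1%), and the smallest adjusted p was 0.153. Fold changes lay between -0.68 and 0.27, 29 of 36 were below 0 (all genes 51.5%), with a median of -0.14 (all genes -0.01). Without the vehicle library of batch 2, 10 of 36 were below 0 (all genes 50.3%), with a median of 0.07. Without batch 1 the median was -0.26. Epithelial markers differed from vehicle by -0.51 ± 0.55 (SD, n = 6 batches, exact sign-flip test, two-sided p = 0.0625), lower in 5 of 6. Proliferation markers differed by 1.12 ± 1.35 (exact p = 0.156), higher in 5 of 6 and lower in batch 4. Without batch 2 these came to -0.35 and 0.78. Under IL-6 epithelial and proliferation markers differed by -0.18 ± 0.43 and 1.05 ± 1.28, and under TGF-β by -0.14 ± 0.44 and 0.64 ± 1.29. The part of these markers in the shift of the group was not tested.

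AMPH encodes amphiphysin, which links curved membrane and clathrin to dynamin during vesicle retrieval (chr7:38383704-38631373). Its normalized counts under IL-4+IL-13 were 2438, 3963, 4810, 4257, 3937 and 3867 in batches 1 to 6, against 1544, 3569, 4369, 3946, 3223 and 3193 in vehicle. Each IL-4+IL-13 library was thus above the vehicle library of its own batch, though the groups overlapped across batches. It was the only one of the 36 that was higher in 6 of 6 batches (all genes 2.3%). The log2 fold change was 0.27 (SE 0.08, 95% interval 0.11 to 0.43) with an adjusted p of 0.153 in edgeR, and 0.27 with an adjusted p of 0.0354 in DESeq2. With the pan-neuronal level as a covariate it was 0.24 with an adjusted p of 0.0398 in edgeR, and the other 35 genes were not called in that model (all genes 0.728%). Batch 1 gave the widest difference, 0.66, and batches 2 to 6 gave 0.11 to 0.29, with a fold change of 0.20 without batch 1. The pan-neuronal level of batch 1 was also higher under IL-4+IL-13 than in vehicle, at 13.43 against 12.64.

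SYT2 (chr1:202590596-202710454), a fast calcium sensor best known from the neuromuscular junction and the hindbrain, was lower under IL-4+IL-13 in 5 of 6 batches. Its normalized counts were 374, 901, 4277, 3802, 2019 and 573 in batches 1 to 6, against 516, 3417, 5199, 2590, 2815 and 1075 in vehicle. Both groups spanned about the same range, and batch 4 went the other way. The log2 fold change was -0.68 (SE 0.30) with an adjusted p of 0.505 in edgeR, and it was -0.22 (adjusted p 0.904) without the vehicle library of batch 2. DNM1, the dynamin that cuts vesicles from the membrane, differed by -0.32 (SE 0.16, adjusted p 0.562 in edgeR), and by -0.08 without that library. The glutamate transporters SLC17A6, SLC17A7 and SLC17A8 differed by -0.13 (SE 0.19), -0.38 (SE 0.22) and -0.11 (SE 0.19). SLC18A3 differed by 0.19 (SE 0.32), with batches from -1.40 (batch 4) to 1.79 (batch 1). For SYN1, SYP, SYT1, SNAP25, VAMP2 and STX1A the values were -0.28, -0.14, 0.11, -0.20, 0.01 and -0.31 on the log2 scale, with SEs of 0.14 to 0.23. Without the vehicle library of batch 2, SLC17A6, SYN1, SYP and SNAP25 were no longer below 0. SLC17A7, SLC17A8 and STX1A stayed below 0.

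**Figure D5:**
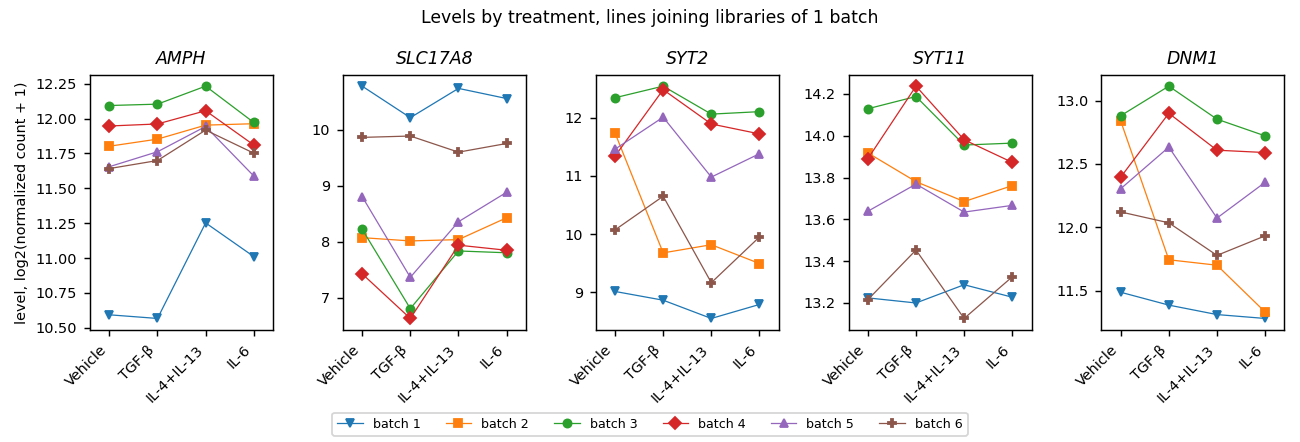
Level (log2(normalized count + 1)) of AMPH, SLC17A8, SYT2, SYT11 and DNM1 under each treatment, with lines joining the 4 libraries of a batch; each panel has its own scale. AMPH was above vehicle under IL-4+IL-13 in 6 of 6 batches, SLC17A8 was below vehicle under TGF-β in 5 of 6, and in batch 2 the vehicle library was high in SYT2 and DNM1.

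With IL-6 no gene passed an adjusted p under 0.05 in edgeR, among the 36 or among all 29377 (0%), where 4.77% of genes (1400) had an unadjusted p under 0.05 and 167 were called by DESeq2 (0.568%). Of the 36, DESeq2 likewise called none. At an unadjusted p under 0.05 there were 0 in edgeR and 3 in DESeq2 (all genes 6.1% there), SV2B, RAB3B and DNM1, each with a fold change below 0. Fold changes lay between -0.61 and 0.10, and 30 of 36 were below 0 (all genes 52.7%), with a median of -0.20. Without the vehicle library of batch 2 the median was -0.01, and 20 of 36 were below 0 (all genes 51.9%). The smallest p values were those of DNM1 (-0.33, SE 0.16), RAB3B (-0.61, SE 0.31) and SV2C, a vesicle glycoprotein (-0.35, SE 0.18), all with an adjusted p of 0.850 in edgeR. Without that library they came to -0.10, -0.13 and -0.07. Of these 3 genes, RAB3B had the widest step in batch 2, with a level difference of -2.50 between IL-6 and vehicle. In the other 5 batches its differences lay between -0.48 and 0.40. SLC17A6 and SLC17A7 differed by -0.16 (SE 0.19) and -0.36 (SE 0.22), and SLC17A8 and SLC18A3 by 0.01 (SE 0.19) and 0.10 (SE 0.32).

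The direct comparison sets TGF-β against IL-4+IL-13, with the vehicle libraries in the same fit, where they enter the batch terms and the spread. None of the 36 genes passed in edgeR, where 2.98% of all genes did, and DESeq2 called none (all genes 5.33%). At an unadjusted p under 0.05 there were 4 (all genes 12.2%), and 9 of 36 fold changes were below 0 (all genes 50.9%). SYT2 had normalized counts of 465, 817, 5969, 5725, 4124 and 1606 under TGF-β in batches 1 to 6, to be read against those under IL-4+IL-13 above. It was higher under TGF-β by 0.67 (SE 0.29, 95% interval 0.05 to 1.28, adjusted p 0.342 in edgeR), in 5 of 6 batches. SYT11 was higher by 0.16 (SE 0.06, adjusted p 0.257), also in 5 of 6. SLC17A8 stood lower under TGF-β, at -0.54 (SE 0.19, adjusted p 0.178), in 5 of 6 batches. AMPH stood lower at -0.24 (SE 0.08, adjusted p 0.116), in 6 of 6 (all genes 5.32%), and DNM1 was higher in 6 of 6 (all genes 4.48%) at 0.25 (SE 0.16, adjusted p 0.610). The median fold change of the 36 genes was 0.05 (all genes -0.005), and 0.21 without batch 1.

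The calls of this comparison depended on which libraries entered the fit. Without the vehicle library of batch 2, SYT2 was called at 0.61 with an adjusted p of 0.0394 (all genes 4.93%). Without all of batch 2, SYT2 (adjusted p 0.0112) and STX1A, the plasma membrane syntaxin (0.37, adjusted p 0.0193), were called (all genes 4.92%). With the vehicle libraries of batches 2 and 4 left out, 3 genes were called (all genes 5.75%), SYT2 (0.62, adjusted p 0.0148), STX1A (0.30, adjusted p 0.0277) and DNM1 (0.24, adjusted p 0.0397). With the pan-neuronal level in the model, AMPH was called at -0.25 with an adjusted p of 0.0114 (all genes 3.55%). Over all 24 libraries, STX1A stood at 0.31 (SE 0.19, adjusted p 0.578), higher in 5 of 6 batches, with -0.06 in batch 2.

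The remaining genes are described here by role, none of them called in any of the 4 comparisons in edgeR. Among the vesicle proteins, SYN2 and SYN3, synapsins that tether vesicles to each other, had normalized counts of 945 to 5774 and 750 to 2672 in vehicle. SV2A, SV2B and SV2C, glycoproteins of the vesicle membrane, had 4966 to 20520, 1712 to 13614 and 2735 to 7952. Against vehicle, SYN2, SYN3, SV2A and SV2B differed by -0.04 to -0.15 under TGF-β, -0.17 to -0.39 under IL-4+IL-13 and -0.23 to -0.60 under IL-6, with SEs of 0.15 to 0.31. All 4 stood nearer to 0 under IL-4+IL-13 and IL-6 without the vehicle library of batch 2, for example SV2B at -0.10 under IL-6.

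VAMP1, a vesicle SNARE close in sequence to VAMP2, had normalized counts of 461 to 1071 in vehicle and differed by -0.13 under TGF-β, -0.15 under IL-4+IL-13 and -0.19 under IL-6 (SE 0.13 each). The complexins CPLX1 and CPLX2, which hold the assembled SNARE complex ready for calcium, had counts of 191 to 814 and 920 to 4461, and CPLX2 differed by no more than 0.06 in size from vehicle under any cytokine (SE 0.11). The batch share of their variance was the highest of the 36 genes, at 95.1% and 95.6%. NSF and NAPB, the ATPase that takes SNARE complexes apart and its adaptor, differed by -0.06 and -0.07 under TGF-β, with SEs of 0.13 and 0.21. UNC13A stood at -0.04, -0.25 and -0.30 under the 3 treatments (SE 0.21), and UNC13B at 0.02, 0.03 and 0.09 (SE 0.12).

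At the active zone, RAB3C, a GTPase that marks vesicles for docking, had normalized counts of 2961 to 15841 in vehicle, and RAB3A of 1235 to 7034. RAB3B had the widest counts of the 3 Rab3 genes, from 7909 in vehicle of batch 1 to 46335 in batch 3. The scaffolds RIMS1, BSN, PCLO and ERC2, which gather calcium channels and primed vesicles, stood at -0.14, 0.01, -0.07 and -0.05 under TGF-β, and at -0.11, -0.07, -0.21 and -0.04 under IL-4+IL-13, with SEs of 0.13 to 0.21. Under IL-6 they stood at -0.32, -0.16, -0.27 and -0.15. Of the retrieval genes, SYNJ1, a lipid phosphatase that helps strip the clathrin coat, had counts of 940 to 2646 in vehicle and differed by -0.11 under TGF-β, -0.15 under IL-4+IL-13 and -0.17 under IL-6 (SE 0.10 each).

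The pan-neuronal level itself, the stand-in for the share of neurons, differed from vehicle by 0.07 ± 0.17 under TGF-β (SD, n = 6 batches, exact sign-flip test, two-sided p = 0.375), by 0.06 ± 0.37 under IL-4+IL-13 (exact p = 0.938) and by 0.04 ± 0.24 under IL-6 (exact p = 0.969). The smallest p that 6 batches allow is 0.0313. In batch 1 it was 0.78 higher under IL-4+IL-13 and 0.51 higher under IL-6, and in the other 5 batches the differences lay between -0.24 and 0.04 for these groups. Relative to this level, the mean of the 36 genes differed from vehicle by -0.11 under TGF-β, -0.17 under IL-4+IL-13 and -0.20 under IL-6, and by 0.02, -0.05 and -0.06 without batch 2.

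Beyond the 36 genes, 72 other genes of vesicle release, among them further synaptotagmins, liprins, neurexins and vesicle proteins, were all tested, and edgeR called none in any of the 4 comparisons over all 24 libraries. At an unadjusted p under 0.05 there were 1 under TGF-β, 3 under IL-4+IL-13, 4 under IL-6 and 6 in the direct comparison, which is 1.39%, 4.17%, 5.56% and 8.33% of the 72 genes against 7.29%, 9.1%, 4.77% and 12.2% of all genes. The smallest p was that of CADPS2, a priming factor for dense-core vesicles, under TGF-β, at -0.63 (SE 0.17, adjusted p 0.159), lower in 6 of 6 batches (all genes 2.51%). DESeq2 called CADPS2 there with an adjusted p of 0.0251 (all genes 1.79%), and without the vehicle library of batch 2 it stood at -0.43. Of 11 dense-core vesicle genes, which package and process neuropeptides, edgeR called none over all 24 libraries. In TGF-β against IL-4+IL-13 without the vehicle library of batch 2 it called RIMBP2, a scaffold between RIM and calcium channels (0.32, adjusted p 0.0147), the vesicle protein gene SYNPR (0.40, adjusted p 0.0316) and the granin SCG2 (0.40, adjusted p 0.0350), and these were called without all of batch 2 too. The calls without that vehicle library were 2.78% of the 72 genes and 9.09% of the 11, against 4.93% of all genes. SCG2 and PCSK1 stood at -0.72 (SE 0.30) and -0.94 (SE 0.42) under IL-4+IL-13, and at -0.20 and -0.26 without the vehicle library of batch 2. Over all 24 libraries, they were the 2 of the 11 genes (18.2%) with an unadjusted p under 0.05 in edgeR under IL-4+IL-13 (all genes 9.1%). Under IL-6 there was 1, PCSK2 (9.09%, all genes 4.77%). Under TGF-β and in the direct comparison there were 0 (all genes 7.29% and 12.2%).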

How the data were processed

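The authors deposited raw counts per gene entry, which their sequencing provider made from reads trimmed with Trimmomatic 0.30 and aligned to GRCh38.p14 (per the labels). The names of the aligner and counting tool, and whether libraries were stranded, are not given in the sources used here. Counts of all 24 libraries, including entries with no symbol in RefSeq (13161 NewGene loci), were fitted with edgeR 4.0.16 (TMM, robust quasi-likelihood F test, batch and treatment in the model, minimum total count 10, Benjamini-Hochberg over 29377 genes), with DESeq2 1.42.0 as an alternative. SEs were derived from the fold change and F. Calls needed an adjusted p under 0.05. The labels name the batch shared by same-numbered libraries, which therefore pairs them, and within-batch correlations had a median of 0.564 over 36 pairs against -0.161 over 240 pairs from different batches. RPKM used the lengths of canonical transcripts of GENCODE 44. Coordinates and promoters were from RefSeq, matched by symbol. In simulated counts with 200 changed genes, 83% to 88% of those at a log2 fold of 1 were recovered, with 4 to 9 false calls. The simulation held no batch differences and drew the changed genes only above a minimum mean count. It therefore does not give the recovery of smaller differences in these libraries. The genes with full statistics were the transporters and the vesicle core, and the 3 genes with the smallest p in each comparison. The genes and lists were chosen with earlier results of these data known. DNM1, STX1A, RIMBP2, SYNPR and SCG2 in the direct comparison were named after their values were seen. The study's methods name 5 samples per condition for RNA, without saying which, while the labels hold 6, and all 6 batches were used. Libraries of 1 batch come from 1 differentiation. The edgeR p values rest on the spread left after batch and treatment, shared over the 4 groups and moderated across genes. They cover 6 such batches of 1 line.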

Additional observations from a re-analysis of the deposited data

Results flagged for a closer look

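A search for single libraries far from the other 5 of their group, by Dixon's ratio, covered 150 groups of 6 values and marked 21. Chance marks about 1 in 20 of independent groups, but these groups come from the same libraries and move together. They cannot be set against that rate. Of the 21 marked, 16 were low levels in batch 1. In vehicle these were SYN3 (9.55), SYT1 (10.89), SYT4 (11.88), RAB3C (11.53), RIMS1 (8.96), RIMS2 (8.97), ERC2 (9.95) and AMPH (10.59), all on the log2 scale. Under TGF-β they were SYT1 (11.15), RAB3C (11.45), RIMS2 (9.06), BSN (9.83) and AMPH (10.57). Under IL-6 they were RAB3C (12.36) and RIMS2 (9.41), and under IL-4+IL-13 AMPH (11.25). The pan-neuronal level of batch 1 was low in the same libraries.

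In batch 2, UNC13B stood above the other batches in all 3 treated groups, at 12.02 under TGF-β, 12.05 under IL-4+IL-13 and 12.16 under IL-6, against 11.02 to 11.36 in the other treated libraries. Its vehicle library in that batch was not marked. The pan-neuronal level in batch 1 was marked for its difference from vehicle, 0.78 under IL-4+IL-13 and 0.51 under IL-6.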

How the results depend on the processing

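The count of release genes called was 0 in all 4 comparisons and stayed at 0 with other size factors, with other count filters, with 1 row per symbol, in the 18 libraries without IL-6 and with the NSF entries summed (an alternative chosen after seeing the data). In the fit with no replicate block it was also 0 in all 4. Of all 29377 genes that fit called 0 under TGF-β, 13 under IL-4+IL-13, 0 under IL-6 and 51 in the direct comparison. With the block these were 102, 186, 0 and 874. With so few calls over all genes, the fit without the block cannot show what the pairing did for the release genes. The exceptions to 0 release genes called were 1 gene for IL-4+IL-13 with DESeq2, and 1 there and 1 in the direct comparison with the neuronal covariate. The others were in the direct comparison, 1 without the vehicle library of batch 2. There were 3 there with the vehicle libraries of batches 2 and 4 left out (also chosen after seeing the data). Leaving out 1 batch at a time gave 0 to 0 for each comparison with vehicle and 0 to 2 for the direct one, the 2 without batch 2. The pan-neuronal difference ranged from 0.021 to 0.123 under TGF-β when 1 batch was left out. Under IL-4+IL-13 it ranged from -0.0884 to 0.116 and under IL-6 from -0.0552 to 0.0747, negative only without batch 1 (-0.0884 and -0.0552), and the cause was not tested. Of 50 fold changes of named genes, 16 changed sign without the vehicle library of batch 2, 16 without all of batch 2, 13 with the vehicle libraries of batches 2 and 4 left out, 9 without the block, 8 without batch 4, and 7 without batch 1. SEs ran from 0.061 to 0.320 over the genes under TGF-β (median 0.186), so the size of difference that could be told from 0 varied between genes.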
